A study of Boehmeria nivea with 6 samples.

Results

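Leaf, root and stem of the ramie cultivar ZSZ1 were each set against the same organ of the wild tenacissima accession QYZM, to ask which genes differ between the varieties in the same direction wherever they were measured. All 6 libraries of the study took part, 1 for each organ of each variety, from plants that were 30 days old. Of 20693 genes in the deposited table, 14941 had at least 1 FPKM (fragments counted on a gene per kilobase of its length, scaled to library size) in at least 2 of the 6 libraries and were compared. Of the 5752 left out, 4810 reached 1 FPKM in no library and 942 in a single one, while 954 of the genes kept reached it in exactly 2. The labels give no treatment, do not say how many plants stood behind a library, and name no allele or transgene.

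Ramie (Boehmeria nivea) is a perennial of the nettle family that is grown for the long bast fibres of its stem. The leaf is its photosynthetic organ, the stem carries the fibre-forming bark, and the root takes up water and stores reserves. A difference between varieties can be limited to one of these organs or be carried by all of them. The table gives genes by identifier alone, without names or products, so the function of a gene cannot be described here and the organ labels could not be checked against marker genes.

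Differences are ZSZ1 minus QYZM on the log2(FPKM + 1) scale, on which 1 is a 2-fold and 2 a 4-fold difference, and low genes are understated. The values are relative within a library, and in bulk tissue a smaller number of cells of a type and less RNA per cell cannot be told apart. Summed FPKM was lower in ZSZ1 in all 3 organs, and by far the most in leaf, where it was 306497 against 433435 in QYZM. The mean difference over organs was -49050 FPKM, and the exact two-sided permutation test over organ pairs gave p = 0.25, the smallest that 3 pairs allow. The median difference over the genes compared was largest in leaf, at -0.41, against -0.13 for root and -0.06 for stem. The QYZM root library correlated with QYZM stem at r = 0.868 and with ZSZ1 root at r = 0.873 (Pearson, across genes), whereas ZSZ1 root and ZSZ1 stem correlated at 0.751. The 2-fold counts are therefore also given without the root libraries.

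Most genes did not keep 1 direction over the 3 organs. A total of 5935 genes (39.7%) had the same sign in leaf, root and stem, 8747 (58.5%) had mixed signs, and 259 (1.73%) had at least 1 organ with identical values in both varieties. Among those with 1 sign, 1041 were higher in ZSZ1 (6.97% of the genes compared) and 4894 were lower (32.8%). The commonest mixed pattern was lower in leaf and root and higher in stem, with 2454 genes. Only 423 genes were higher in leaf and root and lower in stem, which was the rarest of the 8 sign patterns.

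The excess of lower genes among these small differences moved with the scale of the libraries. In leaf, 79.9% of genes were lower in ZSZ1, against 58.8% in root and 55.4% in stem. Median-of-ratios scaling sets the median difference close to 0 by design. It gave 3148 genes higher and 2845 lower in all 3 organs, and the percentage of same-sign genes that were higher went from 17.5 to 52.5. A total of 1000000 per library gave 2450 higher and 3463 lower genes.

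The size of a same-sign difference was taken as the smallest of its 3 organ differences. By this measure most were small. Of the higher genes, 66.0% stayed under 1.2-fold in the organ where they differed least, and of the lower genes 55.6% did. A further 227 higher and 1365 lower genes lay between 1.2-fold and 1.5-fold, and 75 and 509 between 1.5-fold and 2-fold. At least 2-fold in every organ were 52 genes higher in ZSZ1 (0.348%) and 299 lower (2.0%), together 2.35% of the genes compared. Of these, 45 higher and 239 lower genes were under 4-fold in their smallest organ difference, 5 and 41 lay between 4-fold and 8-fold, and 2 and 19 were at 8-fold or more. These counts are by a rule of size and carry no test.

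The 2-fold counts also moved with the scale. With each organ's difference centred on its own median, which raises every gene since the 3 medians are negative, the split was 79 higher and 203 lower, so that the percentage higher was 28.0 in place of 14.8. Median-of-ratios scaling gave 81 higher and 219 lower (27.0% higher) and quantile normalization 80 and 205 (28.1%). A total of 1000000 per library gave 103 higher and 364 lower (22.1%), the one scaling tried with more than 299 lower genes. It also raises the values against the added 1, and the part of that in these counts was not tested. A pseudocount of 0.1 on the values as deposited gave 113 and 540. In leaf and stem alone, without the root libraries, 114 genes were at least 2-fold higher in both organs and 570 at least 2-fold lower.

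Differences of 2-fold or more were shared between organs only in part. In leaf, 304 genes were at least 2-fold higher in ZSZ1 (2.03%) and 2247 lower (15.0%). In root the counts were 956 (6.4%) and 1920 (12.9%), and in stem 646 (4.32%) and 1130 (7.56%). These counts moved with the scale, most of all in leaf. Median-of-ratios scaling gave 737 higher and 1020 lower genes in leaf, 1108 and 1593 in root, and 709 and 946 in stem. The sharing between organs is given for the values as deposited only. Of 3896 genes at least 2-fold lower in at least 1 organ, 2794 (71.7%) were so in a single organ, 803 (20.6%) in 2 and 299 (7.67%) in all 3. Of 1600 genes at least 2-fold higher in at least 1 organ, 1346 (84.1%) were so in a single organ, 202 (12.6%) in 2 and 52 (3.25%) in all 3.

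On the values as deposited, where the leaf list of lower genes was the longest, the overlaps were unequal as shares of the longer and the shorter list. Of the genes lower in stem, 50.4% were also at least 2-fold lower in leaf, which was 25.4% of the longer leaf list. Leaf and root shared 690 lower genes (30.7% of the leaf list and 35.9% of the root list), and root and stem 440 (22.9% and 38.9%). Of the genes higher in leaf, 37.5% were also higher in stem and 33.6% in root. Root and stem had the most genes at least 2-fold apart in opposite directions, with 222, against 126 for leaf and root and 90 for leaf and stem. Across all genes the organ differences, which share no library, correlated at r = 0.389 for leaf and stem (Spearman 0.344), 0.297 for leaf and root (0.245) and 0.23 for root and stem (0.23). These correlations describe 14941 genes, which are not independent replicates.

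**Figure D1:**
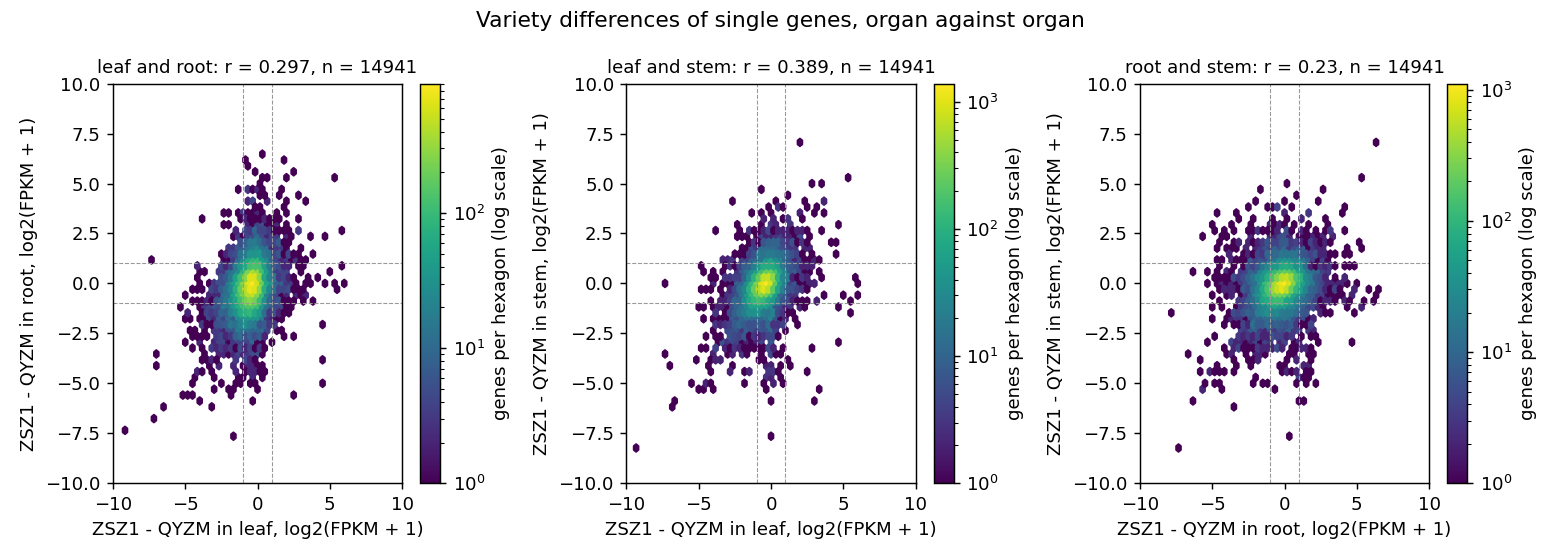
Each panel plots the ZSZ1 minus QYZM difference of 14941 genes in 1 organ against that in another, in log2(FPKM + 1), with colour for the number of genes per hexagon on a log scale and dashed lines at 2-fold. The cloud is elongated along the diagonal most for leaf and stem (r = 0.389) and least for root and stem (r = 0.23), and it sits left of 0 on the leaf axis, where the median is -0.41.

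The 52 genes at least 2-fold higher in ZSZ1 were mostly near 0 in QYZM. Their QYZM medians were 0.0252 (leaf), 0.171 (root) and 0.106 FPKM (stem), against 3.79, 7.4 and 7.89 FPKM in the same organs of ZSZ1. In 32 of them (61.5%) every QYZM library was below 1 FPKM, against 0.957% of all genes compared. Only 10 (19.2%) reached 1 FPKM in all 6 libraries, against 73.2% of all genes compared. Together they held 0.18% of the ZSZ1 leaf total, 0.356% of the root total and 0.246% of the stem total.

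The 299 genes at least 2-fold lower in ZSZ1 were more often expressed in both varieties than the higher ones, though less often than all genes compared. Their QYZM medians were 8.21 (leaf), 10.1 (root) and 9.6 FPKM (stem), and their ZSZ1 medians 0.73, 1.27 and 1.35 FPKM. In 100 of them (33.4%) all 6 libraries reached 1 FPKM, against 73.2% of all genes compared. In 98 (32.8%) every ZSZ1 library was below 1 FPKM, against 2.18% of all genes compared. The 100 genes expressed throughout had QYZM medians of 23.8, 35.0 and 33.1 FPKM for leaf, root and stem, and ZSZ1 medians of 4.78, 7.65 and 8.49 FPKM. The whole set held 2.7% (leaf), 3.32% (root) and 2.9% (stem) of the QYZM totals and 0.514%, 0.677% and 0.685% of the ZSZ1 totals. Because the rule compared these libraries, the levels describe the sets and test nothing.

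**Figure D2:**
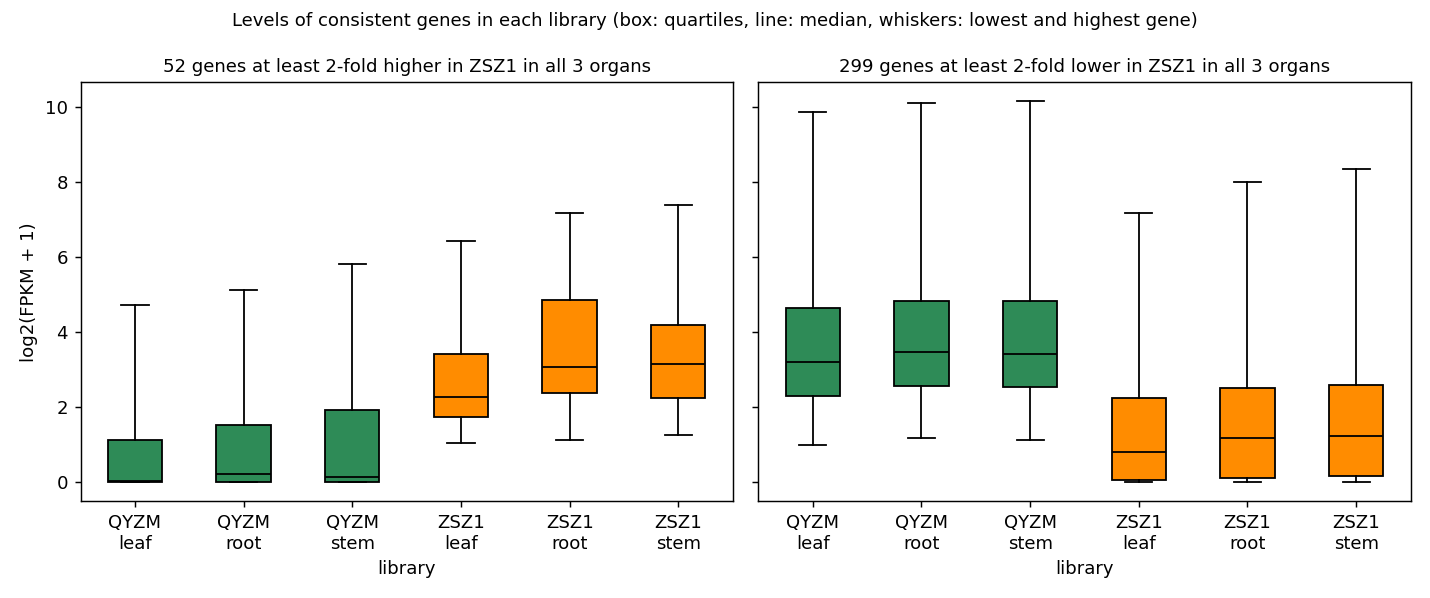
Boxes show log2(FPKM + 1) in each of the 6 libraries for the 52 genes higher and the 299 genes lower in ZSZ1 by at least 2-fold in all 3 organs, with quartiles, the median as a line, and whiskers to the lowest and highest gene. The QYZM medians of the higher genes lie near 0, while those of the lower genes are 8.21 to 10.1 FPKM, above ZSZ1 medians of 0.73 to 1.35 FPKM.

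Within these sets the 3 organs gave differences of unequal size. The largest and smallest organ difference of a lower gene lay within 1 log2 unit of each other in 165 of 299 cases (55.2%), and in 22 of the 52 higher genes (42.3%). For comparison, they did so in 9316 of all genes compared (62.4%), most of which differ little. The largest of the 3 differences fell in root for 123 of the lower genes (41.1%), in leaf for 116 (38.8%) and in stem for 60 (20.1%), against 38.2%, 42.1% and 19.8% of all genes compared. For the higher genes it fell in root for 22 (42.3%), in stem for 21 (40.4%) and in leaf for 9 (17.3%). Lower genes that were below 1 FPKM throughout ZSZ1 were more even over the organs, with a median standard deviation of 0.37 log2 units over the 3 organs, than those at or above 1 FPKM in every ZSZ1 library, with 0.49, although the added 1 compresses differences of low genes.

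The organ in which a gene was highest was also compared, for genes with at least 1 FPKM in some organ of each variety. Of 14473 such genes, 9723 (67.2%) were highest in the same organ in QYZM and ZSZ1. For the lower genes of at least 2-fold it was 126 of 201 (62.7%), and for the higher ones 14 of 20. Of those 201 lower genes, 37.3% were highest in leaf in QYZM, against 25.9% of all genes, and 18.4% were highest in leaf in ZSZ1, against 16.5%. The highest organ was taken from the values as deposited. Leaf had the largest QYZM total (433435) and the smallest ZSZ1 total (306497), and the part of this in these percentages was not tested.

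Each gene was then tested with limma on all 6 libraries, with organ and variety terms and Benjamini-Hochberg adjustment over the 14941 genes, with calls made where the adjusted p was under 0.05 and the difference 2-fold or more. The test called 99 genes (0.663%), 10 higher (0.0669%) and 89 lower in ZSZ1 (0.596%). All 99 had 1 sign over the organs and were at least 2-fold apart in each of them, against 39.7% and 2.35% of all genes. The smallest organ difference was 1.49 among the higher and 1.42 among the lower genes. A call largely fixes this, since the error term rests in part on the spread of the same 3 differences. The other part is moderation over all genes. At least 4-fold apart in every organ were 5 of the 10 higher and 57 of the 89 lower genes. Every ZSZ1 library was below 1 FPKM in 48 of the called lower genes (53.9%), against 2.18% of all genes. Every QYZM library was so in 7 of the 10 called higher genes, against 0.957% of all genes.

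The other 252 genes of the 2-fold sets were not called. Their adjusted p ran from 0.0501 to 0.254 in limma, 163 of them were below 0.1, and all 252 had an unadjusted p below 0.05. Of all 14941 genes, 2301 had an unadjusted limma p below 0.05. The 2-fold rule picked the 252 on the same 3 differences, so their small p-values are no further evidence. Whatever the 3 libraries of a variety share besides the variety, such as growing conditions or handling, cannot be told apart from it. Limma called no gene when either leaf library was left out (1393 and 1396 genes at an unadjusted p below 0.05), and 287 and 276 were called when either root library was left out.

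The called genes with the highest mean over the 6 libraries, 2 in each direction, were followed through all libraries. They were picked as called, so that their varieties stand apart describes them and tests nothing. Bnt10G015889 was present in both varieties, where leaf, root and stem gave 10.2, 9.22 and 8.06 FPKM for QYZM and 30.7, 42.6 and 39.8 FPKM for ZSZ1. Every ZSZ1 library stood above every QYZM library, and the difference was 1.92 ± 0.24 (SE; limma adjusted p = 0.0472). This call was lost under 10 of 18 alternatives, with differences of 1.58 to 2.18. Leaving out either library of an organ gives the same difference, so such tallies enter the same comparison more than once. Bnt01G000084 was listed at 0 in every QYZM library, whereas ZSZ1 leaf, root and stem held 41.7, 41.3 and 35.4 FPKM. It hardly varied over the ZSZ1 organs (5.33 ± 0.23, SE; limma adjusted p = 0.00542), and its organ differences, which depend on the added 1, were 5.42, 5.40 and 5.18.

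Among the lower genes, Bnt01G000085, the next identifier in the table, reached 796 FPKM (leaf), 150 FPKM (root) and 300.0 FPKM (stem) in QYZM. The ZSZ1 values were 0.28 FPKM for leaf and a listed 0 for root and stem. Its organ differences of -9.28, -7.24 and -8.23 followed the QYZM level of each organ, since ZSZ1 was near 0 throughout (-8.25 ± 0.40, SE; limma adjusted p = 0.00542). For Bnt12G018179 the QYZM leaf, root and stem values were 423, 167 and 325 FPKM, and those of ZSZ1 were 2.26, 8.13 and 16.1 FPKM. The groups did not overlap, and the organ differences were -7.02 in leaf, -4.20 in root and -4.25 in stem (-5.16 ± 0.59, SE; limma adjusted p = 0.039). The highest QYZM organ, leaf, was thus the lowest in ZSZ1, and the call was lost under 8 of 18 alternatives, median-of-ratios scaling among them, with differences of -5.64 to -4.23.

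Genes listed at 0 in all 3 organs of 1 variety and at 1 FPKM or more in all 3 of the other numbered 17 for QYZM and 32 for ZSZ1. What a listed 0 stands for is not known, since no read counts were used and the variety behind the gene models is not stated. Whether reads of both varieties fit those models equally well was not tested, for these genes or for the 2-fold sets. Log2 differences against a listed 0 depend on the added 1 and cannot be read as folds. This also holds where such genes count in the size bands. The 17 genes listed at 0 in QYZM had ZSZ1 medians of 3.8, 4.3 and 5.39 FPKM for leaf, root and stem. The 32 listed at 0 in ZSZ1 had medians of 4.29, 6.88 and 5.58 FPKM in QYZM. Means of at least 20 FPKM in the expressing variety were found in 1 of the 17 and 3 of the 32 genes. With a value below 0.1 FPKM in place of a listed 0, the counts were 19 and 48. Limma called 5 of the 17 and 15 of the 32, against 0.663% of all genes, on values that depend on the added 1. These genes were picked on the same values, so the calls are no separate evidence.

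Of the 17, Bnt01G000084 was the highest. It was followed by Bnt06G009599, with ZSZ1 values of 6.06 (leaf), 5.59 (root) and 27.6 FPKM (stem), which did not pass the test (3.46 ± 0.47, SE; limma adjusted p = 0.0556). Its stem value stood far above those of leaf and root. Of the 32, the highest was Bnt12G017687, with QYZM values of 15.1 (leaf), 20.6 (root) and 33.9 FPKM (stem) (-4.52 ± 0.30, SE; limma adjusted p = 0.0132). Bnt10G015222 followed with 6.71, 35.6 and 20.7 FPKM (-4.19 ± 0.46, SE; limma adjusted p = 0.037), and its call was lost under 9 of 18 alternatives. Leaf was the lowest QYZM organ for both.

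**Figure D3:**
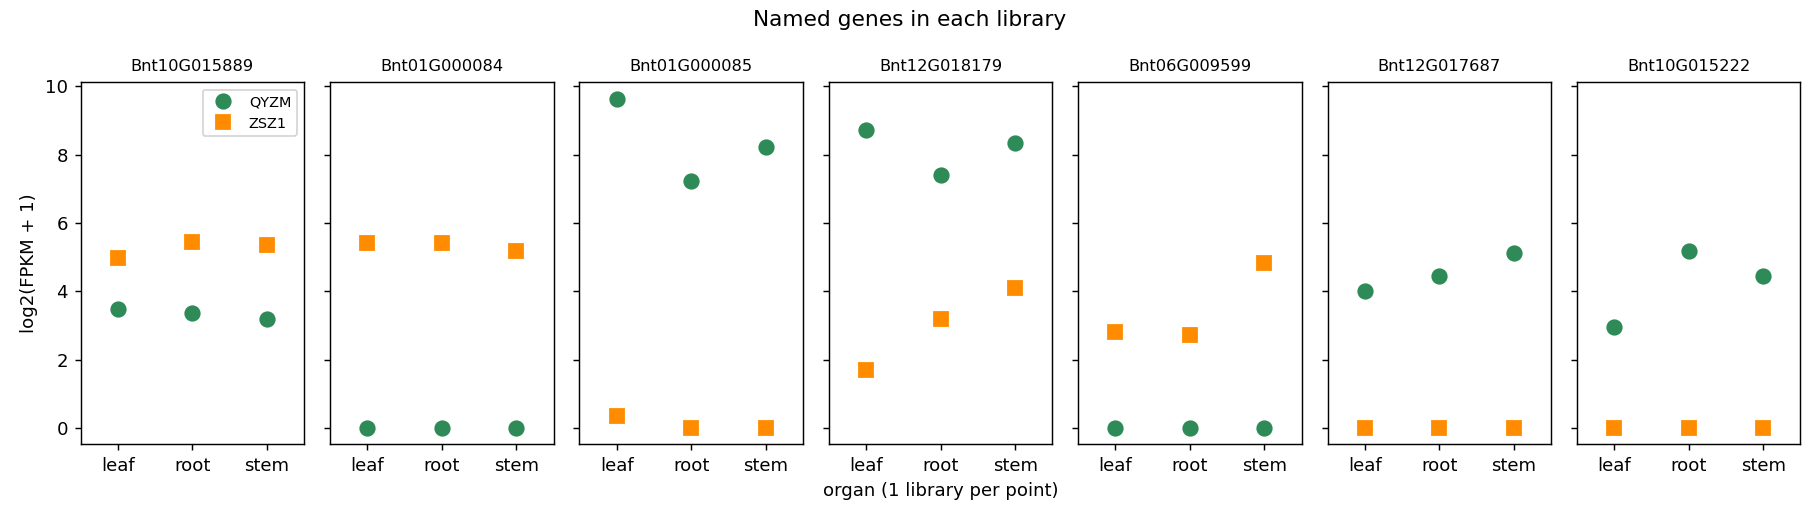
Points give log2(FPKM + 1) of 7 named genes in leaf, root and stem, with 1 library per point, circles for QYZM and squares for ZSZ1. The varieties do not overlap in any of the 7 genes, which the rule that named them largely fixed. Bnt10G015889 is expressed in both, and Bnt01G000084 and Bnt06G009599 lie at 0 in every QYZM library.

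By abundance, genes were classed on their mean FPKM over the 6 libraries. The percentage of genes with 1 sign over the organs was 6.07 to 7.85 for higher genes below 100 FPKM and 5.91 at 100 FPKM or more, and 29.7 to 33.9 for lower genes in the 4 classes. With classes by the QYZM mean the higher genes went from 10.3% below 5 FPKM to 3.91% at 100 FPKM or more. With classes by the ZSZ1 mean the lower genes went from 40.1% to 23.7% over the same classes. The classing favours both trends by construction, since the mean of a variety is part of the difference. The 2-fold sets made up 3.55% of 4395 genes below 5 FPKM, 1.79% of 6421 genes at 5 to 20 FPKM, 1.81% of 3482 genes at 20 to 100 FPKM and 2.64% of 643 genes at 100 FPKM or more, against 2.35% of all genes. The 52 higher genes fell as 31, 12, 9 and 0 into these classes and the 299 lower genes as 125, 103, 54 and 17.

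No gene with a mean of 100 FPKM or more was thus 2-fold higher in ZSZ1 in all organs, where all genes had 0.348%. With classes by the highest of the 6 libraries, 5 of 1343 genes at 100 FPKM or more were (0.372%). By the QYZM mean or the ZSZ1 mean there were 0. The 17 lower genes with a mean of 100 FPKM or more over the 6 libraries had QYZM medians of 271, 265 and 265 FPKM for leaf, root and stem. Their ZSZ1 medians were 32.8, 61.9 and 65.5 FPKM. They held 1.37%, 1.81% and 1.39% of the QYZM totals, out of the 2.7%, 3.32% and 2.9% held by all 299 lower genes. Limma called 4 of the 17, against 89 of all 299 lower genes. Among the 100 genes with the highest means, 7 were higher and 36 lower in every organ, and 0 and 3 by at least 2-fold, of which limma called none.

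The order of the classes depended on how abundance was taken. A gene that is near 0 in 1 variety has a lower mean over both, and by the highest of the 6 libraries the percentages were 1.97 below 5 FPKM, 2.69 at 5 to 20, 1.92 at 20 to 100 and 3.2 at 100 FPKM or more. By the QYZM mean they were 2.55, 2.24, 2.11 and 3.46. By the ZSZ1 mean they were 4.88, 1.22, 1.0 and 0.686, which is the opposite order for the lowest and highest class. Most 2-fold genes were lower in ZSZ1, and classes by the ZSZ1 mean place such genes low by construction.

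**Figure D4:**
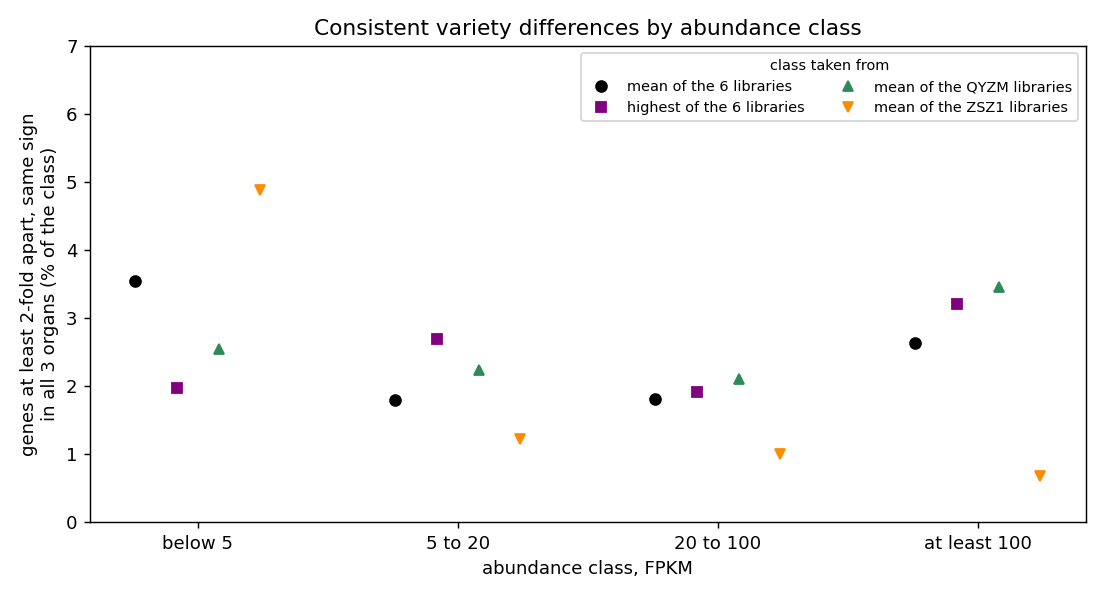
Points give the percentage of genes of an abundance class (in FPKM) that were at least 2-fold apart with 1 sign in all 3 organs, with the class taken from the mean of all 6 libraries, the highest library, the QYZM mean or the ZSZ1 mean. The lowest class runs from 1.97% to 4.88% and the highest class from 0.686% to 3.46%, depending on that choice.

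The 2-fold genes were spread over all identifier prefixes. Each of Bnt01 to Bnt14 and Un held between 11 and 44 of them. As a percentage of genes compared, Bnt03 had the fewest (1.42%, 16 of 1127) and the prefix Un the most (5.07%, 15 of 296), all 15 lower in ZSZ1. Bnt12 followed with 4.17% (30 of 720), Bnt13 with 3.42% and Bnt02 with 3.24%. Bnt14 held 11 lower genes and none higher, and Bnt09 had the largest percentage of higher genes among its 2-fold genes, at 33.3 (7 of 21). After median-of-ratios scaling Un (3.72%), Bnt12 (3.61%) and Bnt13 (3.15%) were again the highest and Bnt03 the lowest (1.15%).

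Same-sign differences of any size followed a narrower range. Lower genes made up 29.7% of Bnt01 to 38.3% of Bnt11, and higher genes 5.6% of Bnt11 to 7.92% of Bnt12, with 11.8% in Un. Limma calls were few per prefix. Bnt02 had the most, with 3 higher and 12 lower, followed by Bnt12 with 1 and 10 and Bnt06 with 0 and 10. The 10 called higher genes came from 6 prefixes.

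**Figure D5:**
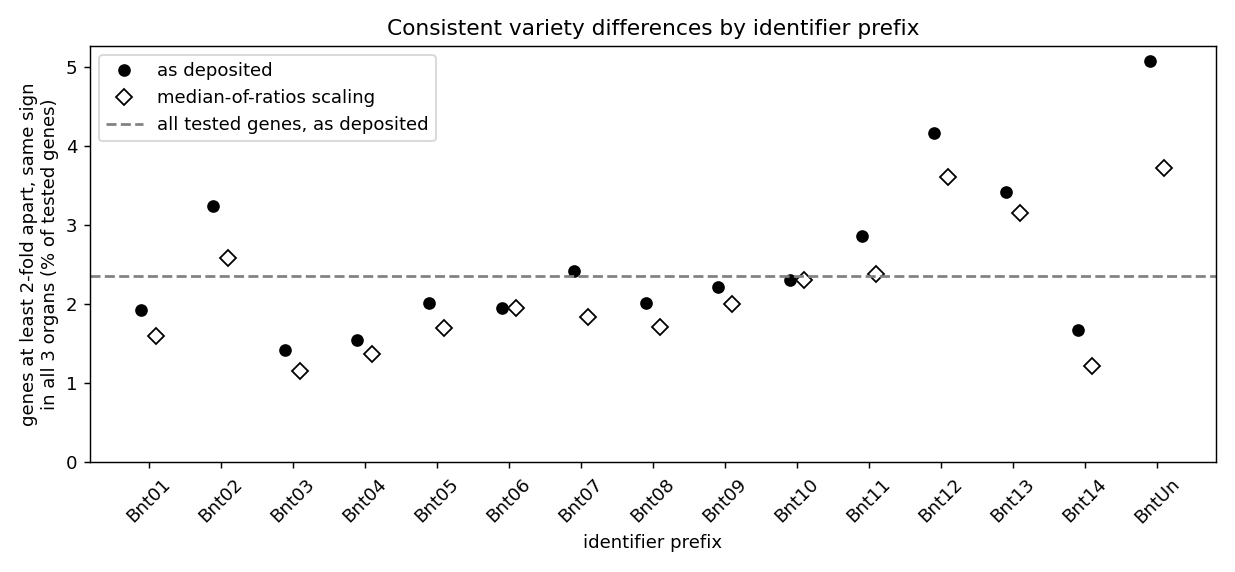
Points give, for each identifier prefix, the percentage of genes compared that were at least 2-fold apart with 1 sign in all 3 organs, as deposited and after median-of-ratios scaling, and the dashed line marks 2.35% for all genes as deposited. Un (5.07%), Bnt12 (4.17%) and Bnt13 (3.42%) lie highest, and Bnt03 (1.42%) lies lowest.

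Some 2-fold genes had identifiers that directly follow each other. The order of identifiers is taken here only as the table gives it, since no coordinates were used. Of 11394 adjacent pairs in which both genes were compared, 18 had both genes in the 2-fold sets, 12 with both lower, 1 with both higher and 5 with opposite signs. Of the 351 genes, 34 (9.69%) stood in such runs, none longer than 3. The 2-fold sets made up 2.35% of all genes compared, and 14.8% of their genes were higher in ZSZ1. How far the pair and run counts depart from these shares was not tested. The 2 runs of 3 were singled out after their values were seen. In the one from Bnt01G000466 all 3 genes were lower, and limma called the last 2 (adjusted p = 0.0175 and 0.0191). The first, which did not pass the test (limma adjusted p = 0.059), had 748 FPKM in QYZM leaf against 141 FPKM in ZSZ1 leaf, 2.02 against 0.0889 FPKM in root and 51.1 against 6.25 FPKM in stem.

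The other run, from Bnt12G017418, alternated. The first gene had QYZM values of 6.2 (leaf), 4.36 (root) and 4.36 FPKM (stem) and a listed 0 in every ZSZ1 library (limma adjusted p = 0.0277). The second was listed at 0 in QYZM and stood at 3.8, 3.31 and 3.5 FPKM in ZSZ1 (limma adjusted p = 0.037). The third was again lower in ZSZ1, at 0.0473, 0.489 and 0.398 FPKM against 1.83, 3.79 and 3.07 FPKM, and did not pass the test (limma adjusted p = 0.0737). Bnt01G000084 and Bnt01G000085 were the other adjacent pair of opposite sign with both genes called by limma.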

How the data were processed

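Total RNA of leaf, root and stem was extracted separately for each of 6 samples and made into a cDNA library of its own, per the labels' protocols. The authors deposited FPKM values in 1 table. Bowtie2 and RSEM appear in the submitters' processing notes, with no version or role. Nothing used here states the genome build, gene models or strand handling, and near-identical genes may share reads. Read counts were not known. If whole fragments were counted, low values (below 0.2 FPKM) placed the libraries at 0.91 to 1.14 times their mean depth, and counting intervals or detection limits could not be had.

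From these values, limma 3.58.1 in R 4.3.3 was fitted to log2(FPKM + 1) of 14941 genes with organ and variety terms and a mean-variance trend, on 2 residual and 3.71 prior degrees of freedom. The error term is the departure of single libraries from additivity, moderated over all genes. Nothing says that libraries came from separate plants, so p-values reflect only the spread between these 6 samples, which may be technical. The fit was tested on simulated data. Counts and correlations were made in Python 3.11.15 with pandas 2.3.3, numpy 2.4.6 and scipy 1.17.1, and plots with matplotlib 3.10.9. A count of at least 2-fold required log2 differences of at least 1 in every organ. Alternatives were pseudocounts of 0.1 and 5, other filters, 3 scalings, centring, other fold thresholds and moderation, no organ block, and leaving out each library.

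Named genes were, at most 2 in each direction, the called genes with the highest mean FPKM, and those listed at 0 in 1 variety with the highest mean in the other. Gene lists needed names and were not used. Members and rules were chosen with earlier results of these data known.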

Additional observations from a re-analysis of the deposited data

Results flagged for a closer look

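The varieties differed in opposite directions between organs in 39 genes that were at least 4-fold higher in ZSZ1 in 1 organ and at least 4-fold lower in another. They were picked out for this, with 1 library against 1 in each organ, and the difference between organs was not tested. In all, 282 genes were 4-fold or more apart in 2 or more organs, and these made up 13.8% of them. Of them, 21 were higher in stem and lower in root of ZSZ1, with medians of 2.78 FPKM in QYZM stem against 26.4 in ZSZ1 stem, and 10.4 FPKM in QYZM root against 0.262 in ZSZ1 root. The 5 other combinations of organs held 4 to 6 genes each, and a gene can count in more than 1. The QYZM root library, which enters the largest combination, was the one that correlated nearly as closely with QYZM stem (r = 0.868) as with ZSZ1 root (0.873), and the part of this likeness in the 21 genes was not tested.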

How the results depend on the processing

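With 1 library for each organ of a variety, the limma calls were sensitive to most choices. Why the calls changed was not tested. The class by the ZSZ1 mean was chosen after seeing the data. Against 99 called genes, limma called 0 with no filter on low values (where 2443 of 18604 had an unadjusted p below 0.05), 27 among genes averaging at least 5 FPKM, 39 with a total of 1000000 per library, 29 with median-of-ratios scaling, 24 with quantile normalization, 31 with a pseudocount of 5, 18 with no organ block and 0 to 287 with 1 library left out. Pseudocount 0.1 gave 129, of which 84 were among the 99. Leaving out a library removes its organ from the comparison, so same-sign genes rose by construction from 5935 to between 8830 and 8954, and 2-fold genes from 351 to between 582 and 792. The 2-fold sets also numbered 195 with a mean of at least 5 FPKM, 653 and 96 with pseudocounts of 0.1 and 5, and 935 and 67 at fold thresholds of 1.5 and 4. The percentage higher among same-sign genes, 17.5, became 41.4 with a total of 1000000, 52.5 with median-of-ratios scaling, 53.7 with quantile normalization, 49.8 with centring and 16.6 to 37.8 with 1 library left out. Among 2-fold genes it went from 14.8 to 22.1, 27.0, 28.1 and 28.0 under these 4 scalings, and a total of 1000000 gave 467 such genes in place of 351. Median differences became -0.0159 (total), 0.0334 (median-of-ratios) and 0.0276 (quantile) in leaf, -0.0275 and 0.00597 (median-of-ratios and quantile) in root, and 0.0226 and 0.0219 in stem. Class percentages moved over 1.5 times to 1.97 (below 5 FPKM) and 2.69 (5 to 20) by the highest library, and to 1.0 (20 to 100) and 0.686 (at least 100) by the ZSZ1 mean. With at least 5 FPKM, 3 and 10 genes were listed at 0 in QYZM and in ZSZ1. The correlations between organs moved by less than 0.1 with pseudocounts of 0.1 and 5 and among genes averaging at least 5 FPKM. No prefix percentage moved by over 1.5 times with median-of-ratios scaling. Other alternatives were not tried for these results. The 7 named genes kept their direction under 18 alternatives, which the naming rule largely fixed. Among these alternatives, leaving out either library of an organ gives the same difference and is no separate check. The 6 called ones lost their calls with no filter and without either leaf library, and Bnt06G009599 gained one under 5 (limma adjusted p = 0.0126 to 0.45 over all 18). The fit is paired by organ, which is its block, and the labels give no replicate numbers that could pair libraries otherwise.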
